A study of Mus musculus with 54 samples.

Results

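The miRNAs described here are 5 mature mouse sequences from 4 hairpins that are widely linked to inflammation: mmu-miR-155-5p, mmu-miR-146a-5p, mmu-miR-146b-5p, mmu-miR-21a-5p and mmu-miR-21a-3p, written without the mouse prefix from here on. They were taken by name from count tables of small RNA sequencing, in which they are 5 of 1966 mature miRNAs in liver and 5 of 1966 in epididymal white adipose tissue (eWAT, a visceral fat depot attached to the epididymis). The sperm table lists 79 miRNAs and 0 of the 5, so sperm is not analysed here. The mice were wild-type C57BL/6 males of the F0 generation that ate chow until 6 weeks of age, entered their diets then and were sampled at 24 weeks of age. HFLF males were given high-fat food for 9 weeks and low-fat food for the next 9 weeks, HF males had 18 weeks of high-fat food, and LF males had 18 weeks of low-fat food. Each diet had 6 libraries per tissue, and the liver and eWAT tables together hold 36 libraries.

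MiR-155 is processed from a non-coding transcript that macrophages and lymphocytes switch on after Toll-like receptor or cytokine signals, and it represses brakes on that signalling such as Socs1. MiR-146a and miR-146b are induced by NF-κB and related pathways and repress the receptor adaptors Irak1 and Traf6, which makes them negative feedback regulators of the same response. MiR-21 is abundant in many cell types, is raised by STAT3 signalling and in fibrosis, and represses Pdcd4. Its 5p arm is the guide strand and its 3p arm is mostly degraded. In mice fed a high-fat diet, epididymal fat is known for gathering macrophages.

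The mature sequences are printed below because the seed, bases 2 to 8 from the 5′ end and given in capitals, decides which transcripts a miRNA can repress, and because 2 of them are nearly the same. They are RefSeq sequences on GRCm38.p6.
miR-155-5p: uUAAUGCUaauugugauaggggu
miR-146a-5p: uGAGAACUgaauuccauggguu
miR-146b-5p: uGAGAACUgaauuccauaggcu
miR-21a-5p: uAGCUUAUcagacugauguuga
miR-21a-3p: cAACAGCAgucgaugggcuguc

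MiR-146a-5p and miR-146b-5p have the same seed, GAGAACU, and differ by 2 substitutions, G18A and U21C, with positions counted from 1 at the 5′ end and the miR-146a-5p base first. A read that stops before position 18 cannot be told apart between them, and how the authors treated such reads is not given in the sources used here. The other members each have a seed of their own within the group. Among all other miRNAs in the sequence table, 1 shares a member's seed, miR-21c with that of miR-21a-5p. It was counted at most 7 times in a liver library and 5 times in an eWAT library.

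The genes lie at 4 separate places in the genome. MiR-155-5p is at chr16:84714143-84714165 on the plus strand, within an exon of the non-coding host gene Mir155hg. MiR-146a-5p is at chr11:43374435-43374456 on the minus strand, and its hairpin overlaps no other annotated gene. MiR-146b-5p is at chr19:46342790-46342811 on the plus strand, in an intron of Mfsd13a, a protein-coding gene on the same strand. MiR-21a-5p is at chr11:86584120-86584141 and miR-21a-3p at chr11:86584082-86584103, both on the minus strand and inside an annotated exon of the protein-coding gene Vmp1. The 2 miR-21a arms therefore come from 1 hairpin, while the 2 miR-146 sequences come from hairpins on different chromosomes.

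The depth was 7481038 to 13022536 counts in eWAT, with 827 to 934 miRNAs detected, and 7017730 to 14394584 in liver, with 593 to 706 detected. Levels are given as CPM, counts scaled to a library of 1000000 after TMM scaling (trimmed mean of M-values) within a tissue. The columns are coded R, H and C, read here as HFLF, HF and LF. That reading rests on H and on the other codes being all that is left, since no source used here defines R and C. The replicate number is that of the labels, which do not say that the libraries of a group come from separate animals, and the spread that a p-value rests on may therefore be technical. The hepatocyte markers miR-122-5p, miR-192-5p and miR-194-5p summed to 340400 to 662500 CPM in liver libraries and 290.9 to 10360 CPM in eWAT libraries. In eWAT, LF replicates 4 and 5 and HFLF replicate 4 were highest, with 8534, 4177 and 2019 CPM of 6 epithelial miRNAs, chiefly of the miR-200 family. The other 15 eWAT libraries had 74.11 to 1337 CPM of them, with LF replicate 3 at 1337 CPM and LF replicate 2 at 484.1 CPM.

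MiR-21a-5p was among the most abundant miRNAs of both tissues, in place 4 of 1966 by mean CPM in liver and place 6 in eWAT. It took a median of 5.11% of the counts of a liver library and 4.93% of those of an eWAT library. MiR-21a-3p, from the same hairpin, was in place 275 in liver and place 386 in eWAT, with 14 to 211 counts per liver library and 27 to 104 per eWAT library. MiR-146a-5p was in place 73 in liver and place 88 in eWAT. MiR-146b-5p held place 132 in liver and place 49 in eWAT, and miR-155-5p place 172 in liver and place 130 in eWAT. The order of the 2 miR-146 sequences was thus opposite in the 2 tissues. Mature miRNAs are of nearly equal length and a read covers the whole sequence, so CPM needs no correction for length.

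In eWAT, miR-155-5p and miR-146b-5p were higher on the HF diet than on the LF diet, by 1.92-fold and 2.16-fold, and miR-146b-5p was lower in HFLF than in HF. The other 3 members passed the test in none of the eWAT comparisons. In the question of whether high-fat feeding shifts these miRNAs, 2 of 5 were called higher in HF than in LF and 0 lower, at an edgeR quasi-likelihood p below 0.05 after Benjamini-Hochberg adjustment over all 571 miRNAs tested in eWAT. Of all 571, 34.9% were called, with 19.6% of all called higher. The members' median log2 fold change was 0.45, beside 0.03 for all miRNAs tested. Since so many miRNAs changed in this comparison, a count of 2 in 5 is near the share of miRNAs in general.

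**Figure D1:**
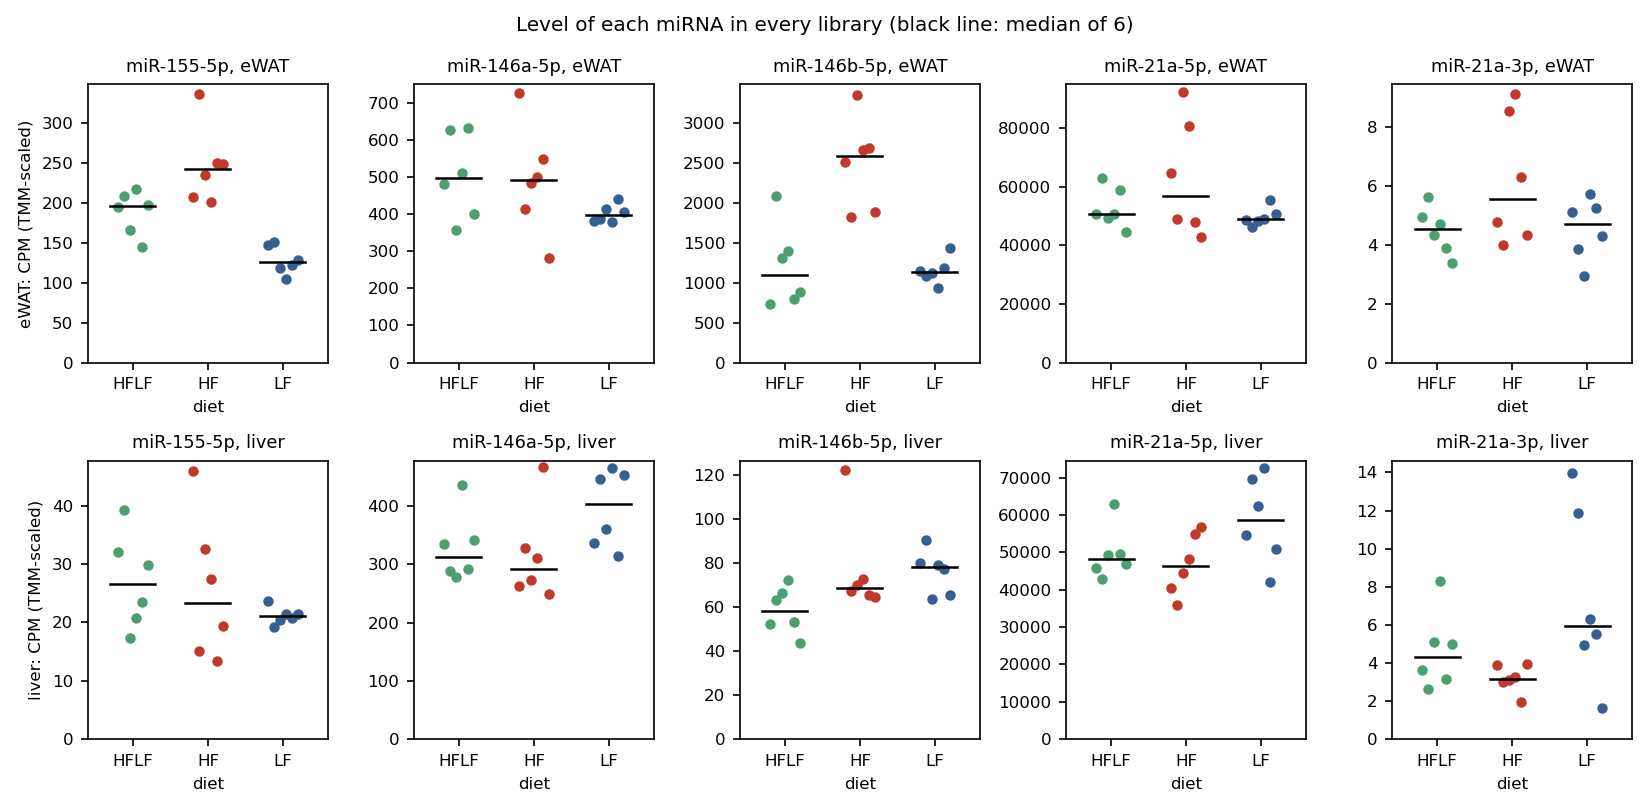
TMM-scaled CPM (vertical axes from 0) of the 5 miRNAs in every library of eWAT (top row) and liver (bottom row), by diet; each point is a library and each black line the median of 6. In eWAT all 6 HF points of miR-155-5p and of miR-146b-5p lie above all 6 LF points, and HFLF replicate 2, at 2085 CPM of miR-146b-5p, is the highest HFLF point; in liver the diets overlap for every miRNA.

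MiR-155-5p had 145.5 to 217.4 CPM in HFLF eWAT (median 196.3), 200.8 to 337.0 CPM in HF eWAT (median 242.6) and 104.8 to 151.0 CPM in LF eWAT (median 125.6). All 6 HF libraries lay above all 6 LF libraries, as was the case for 2 of 5 members beside 13.5% of all miRNAs, in either direction. The HFLF libraries were in between and overlapped both, with HFLF replicates 2 and 4 above HF replicates 1 and 4, and HFLF replicate 5 below LF replicates 1 and 2. The highest HF library was replicate 2.

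Relative to LF, the HF diet gave miR-155-5p a log2 fold change of 0.94 (SE 0.14), or 1.92-fold, with an edgeR adjusted p of 0.000291. For HFLF against HF the log2 fold change was -0.39 (SE 0.14), with all 6 HFLF libraries under the HF mean and an edgeR adjusted p of 0.0509, just outside the threshold. It passed when any 1 of HFLF replicates 2, 4 and 6 or HF replicates 1, 4 and 5 was left out, the smallest edgeR adjusted p being 0.0248, and without the 3 libraries high in epithelial miRNAs (0.0305). The other 6 fits with 1 library left out did not pass, at an edgeR adjusted p of up to 0.0887. HFLF against LF gave 0.55 (SE 0.14) with an unadjusted p of 0.00111 and an edgeR adjusted p of 0.158, while DESeq2 gave an adjusted p of 0.0314. The 95% interval of that difference was 0.27 to 0.83 on the log2 scale.

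MiR-146b-5p had 729.1 to 2085 CPM in HFLF (median 1097), 1820 to 3354 CPM in HF (median 2588) and 939.2 to 1432 CPM in LF (median 1134). HF and LF libraries did not overlap. HFLF replicate 2 was above HF replicates 2 and 6, while HFLF replicates 1, 5 and 6 were below all 6 LF libraries.

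For miR-146b-5p the log2 fold change of HF against LF was 1.11 (SE 0.23), or 2.16-fold, with an edgeR adjusted p of 0.00120. HFLF against HF gave -1.05 (SE 0.23), or 2.07-fold lower, with an edgeR adjusted p of 0.00318. Both calls were made in each library left out in turn and in each other setting tried. HFLF and LF differed by 0.06 (95% interval -0.38 to 0.50), with an edgeR adjusted p of 0.957, so a difference of a size inside that interval was not excluded.

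MiR-146a-5p, with the same seed, had 356.6 to 631.6 CPM in HFLF eWAT (median 496.5), 282.2 to 727.1 CPM in HF eWAT (median 491.9) and 379.3 to 440.2 CPM in LF eWAT (median 396.5). HF replicate 6 was below every LF library and HF replicate 1 above every other library. The log2 fold change of HF against LF was 0.30 (SE 0.18, edgeR adjusted p = 0.218), that of HFLF against HF 0.02 (SE 0.18, edgeR adjusted p = 0.926) and that of HFLF against LF 0.32 (SE 0.18, edgeR adjusted p = 0.494). The LF libraries of miR-146a-5p spanned a narrow range, and those of HF and HFLF a wide one on both sides of it.

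MiR-21a-5p had 44420 to 62980 CPM in HFLF eWAT (median 50670), 42740 to 92430 CPM in HF eWAT (median 56830) and 46180 to 55550 CPM in LF eWAT (median 48850). The 3 diets overlapped, and 3 of 6 HF libraries were above the LF mean. The log2 fold change of HF against LF was 0.34 (SE 0.16), with an unadjusted p of 0.0471 and an edgeR adjusted p of 0.106. It passed when HF replicate 2, 5 or 6 was left out, the smallest edgeR adjusted p being 0.0302 without HF replicate 6. Those are the 3 lowest HF libraries. The other 9 fits with 1 library left out did not pass, at an edgeR adjusted p of up to 0.248. Of 7 other settings 6 did not pass.

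MiR-21a-3p had 3.384 to 5.618 CPM in HFLF eWAT (median 4.53), 3.983 to 9.137 CPM in HF eWAT (median 5.55) and 2.934 to 5.743 CPM in LF eWAT (median 4.708). Its libraries overlapped in every pair of diets. HF against LF gave a log2 fold change of 0.45 (SE 0.23, edgeR adjusted p = 0.148) and HFLF against HF one of -0.46 (SE 0.23, edgeR adjusted p = 0.157).

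In HFLF against HF in eWAT, 1 of 5 members was called, miR-146b-5p, and it was lower. The share of all 571 miRNAs called in this comparison was 25.9%, with 16.3% of all called lower, and the groups did not overlap for 0 of 5 members and 9.81% of all. In HFLF against LF the edgeR test called 0 of 5 members, where 1 had an unadjusted p below 0.05 and DESeq2 called 1, in both cases miR-155-5p. The edgeR test also called 0% of all 571 miRNAs, while 11.4% had an unadjusted p below 0.05 and 1.05% had groups without overlap. DESeq2 called 5 of all 571 miRNAs higher and 4 lower. HF against LF and HFLF against HF share the HF libraries, so an HF library that is high moves both.

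Scaling mattered in eWAT. With counts scaled by library totals alone, all 5 members were called higher in HF against LF, beside 205 of all 571 miRNAs higher and 53 lower. The median of all miRNAs in that comparison moved to 0.32. Relative to that median, miR-146b-5p at 1.43 and miR-155-5p at 1.24 on the log2 scale stood above it, and miR-146a-5p at 0.60, miR-21a-5p at 0.65 and miR-21a-3p at 0.74 less so. Without HF replicate 6, TMM scaling called 4 of 5, and the share of all miRNAs called in that fit is not given here.

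**Figure D2:**
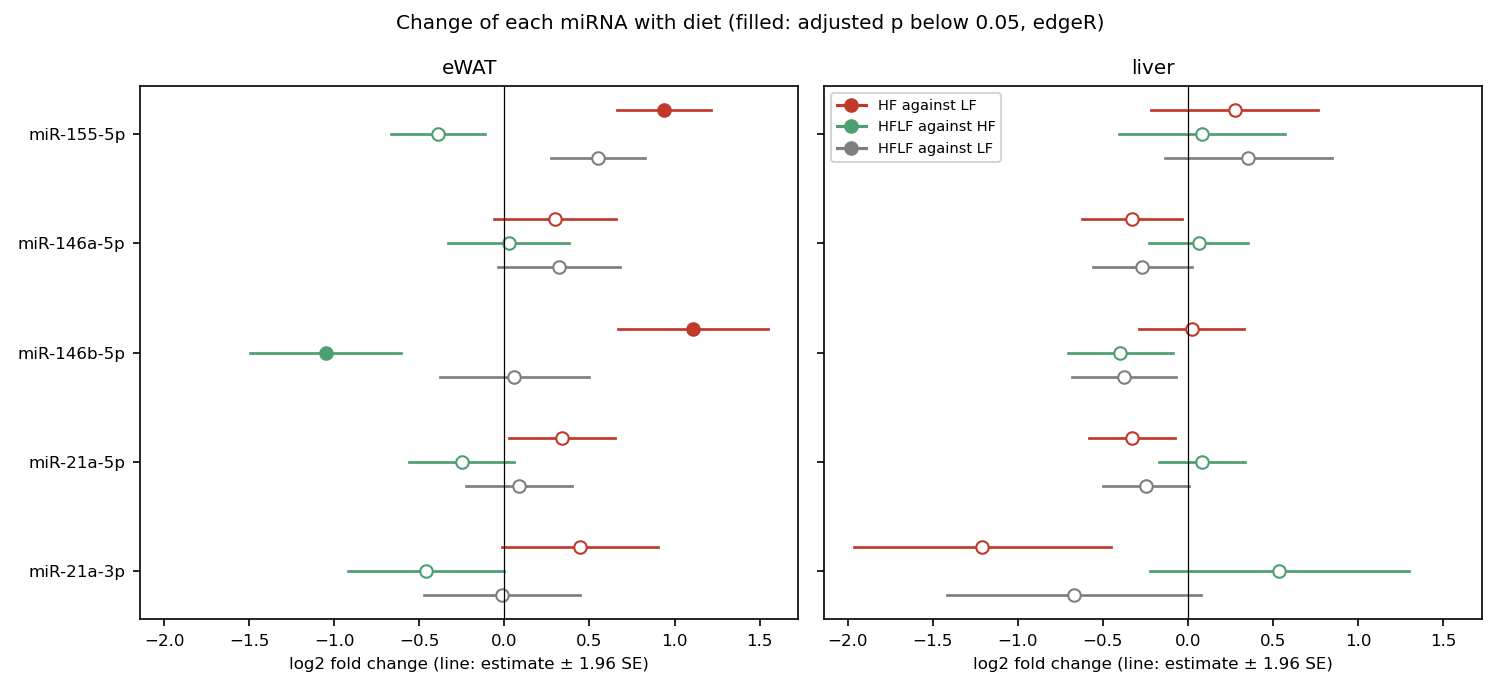
Log2 fold change of each miRNA (horizontal axes) in eWAT (left) and liver (right) for HF against LF, HFLF against HF and HFLF against LF; points are edgeR estimates, lines 95% intervals, and filled points have an adjusted p below 0.05. The 3 filled points are miR-155-5p (0.94) and miR-146b-5p (1.11) for HF against LF and miR-146b-5p (-1.05) for HFLF against HF, all in eWAT.

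In liver none of the 5 miRNAs passed the test in any comparison of diets. For HF against LF the edgeR test called 0 of 5 members, against 5.69% of all 422 miRNAs tested in liver. DESeq2 called 1, miR-21a-3p, beside 24 of all 422 miRNAs higher and 23 lower. At an unadjusted p below 0.05 were 3 of 5 members, all lower in HF, beside 22% of all miRNAs. For HFLF against HF the edgeR test called 0 of 5 members and 0% of all miRNAs, with 1 member (miR-146b-5p) at an unadjusted p below 0.05, beside 15.4% of all. DESeq2 called 0 members there, beside 9 of all 422 miRNAs higher and 6 lower. For HFLF against LF the edgeR test again called 0 of 5 members and 0% of all, with 1 member (miR-146b-5p) at an unadjusted p below 0.05, beside 12.1% of all. DESeq2 called 0 members in that comparison, beside 1 of all 422 miRNAs higher and 3 lower. In each of the 3 liver comparisons the groups overlapped for all 5 members, and they did not for 3.08% of all miRNAs in HF against LF, 1.18% in HFLF against HF and 0.237% in HFLF against LF.

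MiR-21a-3p had 2.641 to 8.309 CPM in HFLF liver (median 4.296), 1.948 to 3.954 CPM in HF liver (median 3.167) and 1.606 to 13.98 CPM in LF liver (median 5.916). The HF libraries were close together and the LF libraries far apart, with the lowest of all 18 among the LF libraries. HF against LF gave a log2 fold change of -1.21 (SE 0.39) with an edgeR adjusted p of 0.0554, and DESeq2 gave an adjusted p of 0.0237. With the low-count filter removed the edgeR adjusted p was 0.0299, and without LF replicate 6 it was 0.0122. The other 11 fits with 1 library left out did not pass, at an edgeR adjusted p of up to 0.179. Of 6 other settings 4 did not pass, at an edgeR adjusted p of up to 0.124.

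MiR-21a-5p had 43000 to 62860 CPM in HFLF liver (median 48180), 36020 to 56930 CPM in HF liver (median 46280) and 42100 to 72650 CPM in LF liver (median 58650). The log2 fold change of HF against LF was -0.33 (SE 0.13, edgeR adjusted p = 0.121), with 6 of 6 HF libraries under the LF mean and the groups overlapping. It passed without LF replicate 5, at an edgeR adjusted p of 0.0440. The other 11 fits with 1 library left out did not pass, at an edgeR adjusted p of up to 0.305. HFLF against LF gave -0.25 (SE 0.13, edgeR adjusted p = 0.476).

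MiR-146a-5p had 278.2 to 436.9 CPM in HFLF liver (median 313.3), 248.4 to 466.4 CPM in HF liver (median 292.2) and 313.4 to 464.8 CPM in LF liver (median 403.7). The log2 fold change of HF against LF was -0.33 (SE 0.15, edgeR adjusted p = 0.185), and without HF replicate 5, the highest of all 18 libraries, it was -0.47 with an edgeR adjusted p of 0.0234. The other 11 fits with 1 library left out did not pass, at an edgeR adjusted p of up to 0.378. The sign of the change in HF was opposite to that in eWAT, where the change did not pass the test either.

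MiR-146b-5p had 43.56 to 72.52 CPM in HFLF liver (median 58.15), 64.8 to 122.6 CPM in HF liver (median 68.92) and 63.72 to 90.66 CPM in LF liver (median 78.43). HF replicate 1 was the highest library, and the other 5 HF libraries were between 64.8 and 72.65 CPM. HFLF against HF gave a log2 fold change of -0.40 (SE 0.16, edgeR adjusted p = 0.246) and HFLF against LF one of -0.38 (SE 0.16, edgeR adjusted p = 0.315). The change from LF on the HF diet was 0.02 (95% interval -0.29 to 0.33).

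MiR-155-5p had 17.4 to 39.25 CPM in HFLF liver (median 26.61), 13.43 to 46.01 CPM in HF liver (median 23.34) and 19.24 to 23.72 CPM in LF liver (median 21.11). The LF libraries lay inside the range of HF and of HFLF. HF against LF gave a log2 fold change of 0.27 (95% interval -0.21 to 0.76), with an edgeR adjusted p of 0.602.

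Whether the diet effect differed between the tissues was tested as an interaction over all 36 libraries, as the eWAT log2 fold change minus that of liver. For HF against LF, 2 of 5 members differed, against 26.7% of the 595 miRNAs tested. DESeq2 called 3 members, beside 89 of all 595 miRNAs above 0 and 100 below. MiR-146b-5p differed by 1.05 (SE 0.27) with an edgeR adjusted p of 0.00384, being called higher in eWAT and close to 0 in liver. MiR-21a-3p differed by 1.62 (SE 0.48) with an edgeR adjusted p of 0.0116, from 2 changes of opposite sign that had each missed the threshold. With a block for the replicate number it did not pass, at 1.32 with an edgeR adjusted p of 0.0802.

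For miR-155-5p the interaction was 0.65 (SE 0.27) with an edgeR adjusted p of 0.0687, so its rise in eWAT is not shown to differ from the change in liver. MiR-21a-5p gave 0.57 (SE 0.23) with the same edgeR adjusted p of 0.0687. It passed by DESeq2 at 0.62 with an adjusted p of 0.0304, and in edgeR at adjusted p of 0.0336 by RLE and 0.00875 by library totals, so its call depended on the scaling. MiR-146a-5p gave 0.53 (SE 0.27, edgeR adjusted p = 0.138) and passed by library totals alone, at 0.73 with an edgeR adjusted p of 0.0250. For HFLF against HF the edgeR test called 0 of 5 members and 9.58% of all miRNAs, with 1 member, miR-146b-5p at -0.62, at an unadjusted p below 0.05. DESeq2 called 0 members there, beside 39 of all 595 miRNAs above 0 and 38 below. For HFLF against LF the edgeR test called 0 of 5 members and 0% of all, with 1 member, miR-146a-5p at 0.57, at an unadjusted p below 0.05. DESeq2 called 0 members in that comparison, beside 7 of all 595 miRNAs above 0 and 2 below.

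Between the tissues themselves, miR-155-5p and miR-146b-5p were higher in eWAT than in liver on every diet and under each scaling tried. On a TMM scale set over both tissues, miR-146b-5p had median CPM of 717.7 in HFLF eWAT and 90.51 in HFLF liver, 1642 in HF eWAT and 112.5 in HF liver, and 729.5 in LF eWAT and 118.2 in LF liver. The log2 fold change of eWAT against liver was 3.09 on HFLF (SE 0.20), 3.71 on HF (SE 0.21) and 2.66 on LF (SE 0.20), with edgeR adjusted p of 5.11e-15, 7.64e-17 and 1.62e-13. No eWAT library overlapped a liver library of its diet.

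MiR-155-5p had median CPM on that scale of 125.1 in HFLF eWAT and 41.55 in HFLF liver, 147.0 in HF eWAT and 36.43 in HF liver, and 81.53 in LF eWAT and 31.82 in LF liver. The log2 fold change of eWAT against liver was 1.53 on HFLF (SE 0.19), 1.99 on HF (SE 0.20) and 1.34 on LF (SE 0.19), with edgeR adjusted p of 2.04e-08, 6.62e-11 and 2.73e-07. The tissues did not overlap on any diet.

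The other 3 members were lower in eWAT by TMM, but their direction depended on the scaling. On LF the log2 fold change of eWAT against liver was -1.24 for miR-146a-5p (SE 0.19), -1.50 for miR-21a-5p (SE 0.17) and -1.99 for miR-21a-3p (SE 0.34), all 3 called. Scaled by library totals, it was -0.000299 for miR-146a-5p and -0.26 for miR-21a-5p, neither called, and -0.75 for miR-21a-3p. On HF, TMM gave -0.70, -0.93 and -0.36 for the 3, the last not called, while library totals gave 0.73, 0.52 and 1.02, all called higher. On HFLF, TMM gave -0.67, -1.19 and -1.33, all called, while library totals gave 0.56 for miR-146a-5p, called higher, with 0.05 for miR-21a-5p and -0.09 for miR-21a-3p not called. The median of all miRNAs was 0.30 on HFLF, 0.37 on HF and 0.36 on LF by TMM, and 1.53, 1.75 and 1.57 by library totals. Relative to those medians the 3 were lower in eWAT under both scalings. In eWAT against liver 5 of 5 members were called on HFLF, 4 of 5 on HF and 5 of 5 on LF, beside 65.2%, 72.6% and 65.2% of all 595 miRNAs.

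**Figure D3:**
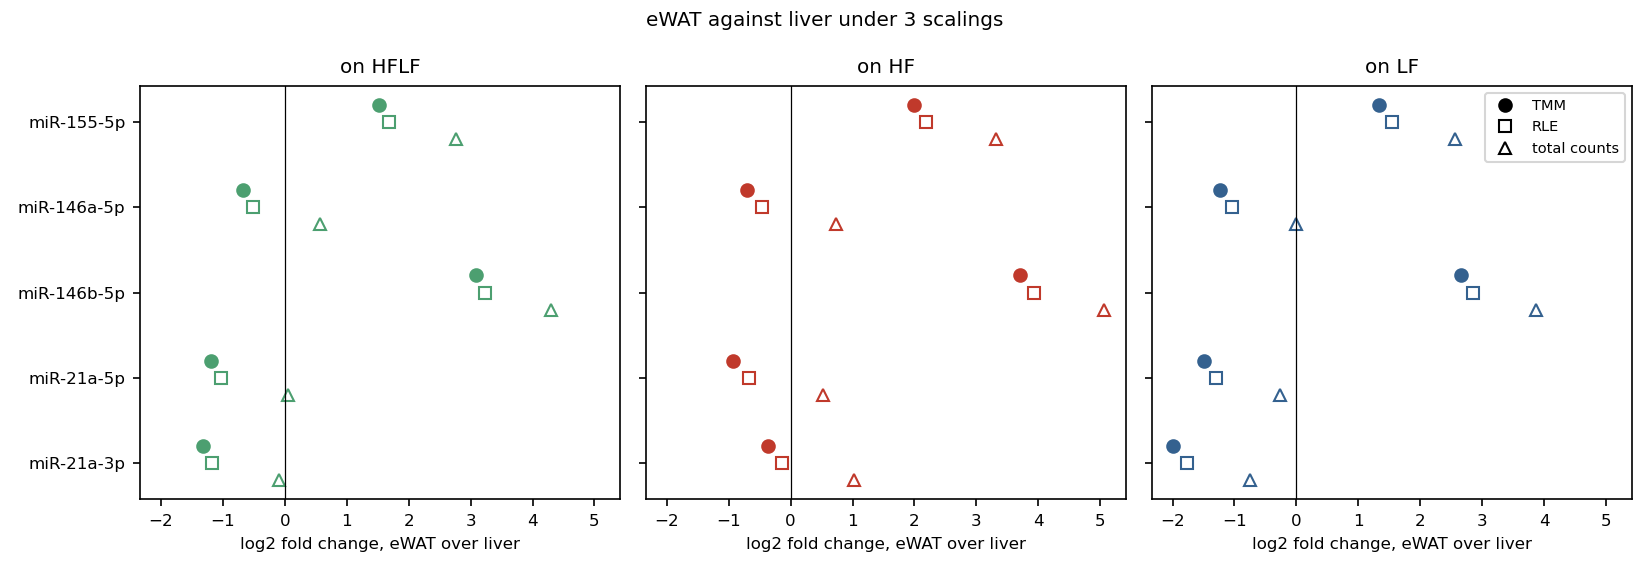
Log2 fold change of eWAT over liver (horizontal axes) for each miRNA on the HFLF, HF and LF diets under TMM (circles), RLE (squares) and library-total scaling (triangles). MiR-155-5p and miR-146b-5p lie right of 0 under all 3 scalings, up to 3.71 by TMM for miR-146b-5p on HF, while the other 3 miRNAs sit left of 0 by TMM and RLE and move across or up to 0 by library totals on 1 or more diets.

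A ratio of 2 miRNAs counted in the same library does not depend on scaling. The ratio of miR-146b-5p to miR-146a-5p in eWAT was 1.27 to 3.68 in HFLF (median 2.47), 3.46 to 6.92 in HF (median 5.12) and 2.48 to 3.53 in LF (median 2.76). HF replicate 1, the lowest of the HF libraries, was just below the highest LF and HFLF libraries, and the other 5 HF libraries were above both groups. The log2 difference of HF against LF was 0.85 with an exact 2-sided permutation p of 0.00433 and 0.00649 adjusted over the 3 comparisons, and 6 of 6 HF libraries were above the LF mean. HFLF against HF gave -1.17 with the same exact permutation p of 0.00433 and 0.00649 adjusted. The smallest p that 6 against 6 libraries allow is 0.00216. HFLF against LF gave -0.32 with an exact permutation p of 0.273.

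Counted together, the 2 miR-146 sequences had a median summed level of 1552 CPM in HFLF eWAT, 3201 CPM in HF eWAT and 1531 CPM in LF eWAT. MiR-146b-5p made up a median of 71.0% of that sum in HFLF, 83.6% in HF and 73.4% in LF. In liver the sum was 368.9 CPM in HFLF, 384.6 CPM in HF and 472.1 CPM in LF, and the share of miR-146b-5p was 14.8%, 19.7% and 15.9%. The shared seed was thus carried mostly by miR-146b-5p in eWAT and mostly by miR-146a-5p in liver, on all 3 diets. The liver ratio of miR-146b-5p to miR-146a-5p had medians of 0.174 in HFLF, 0.245 in HF and 0.190 in LF, and no comparison of diets passed, with exact permutation p adjusted over 3 of 0.344 for HF against LF, 0.344 for HFLF against HF and 0.530 for HFLF against LF.

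The 2 arms of miR-21a are cut from the same hairpin. The count ratio of miR-21a-5p to miR-21a-3p had medians of 11150 in HFLF eWAT, 10250 in HF eWAT and 11060 in LF eWAT. In liver the medians were 11060 in HFLF, 14160 in HF and 9472 in LF, and the LF libraries ran from 3907 to 30650. No comparison passed: the exact permutation p adjusted over 3 was 0.621 for each in eWAT, and in liver 0.325 for HF against LF, 0.325 for HFLF against HF and 0.606 for HFLF against LF. The SD of the log2 ratio was 0.43 in HFLF liver, 0.49 in HF liver and 1.03 in LF liver, where the 3p arm ran from 14 counts in replicate 6 to 211 in replicate 1. In eWAT it was 0.20 in HFLF, 0.31 in HF and 0.33 in LF.

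**Figure D4:**
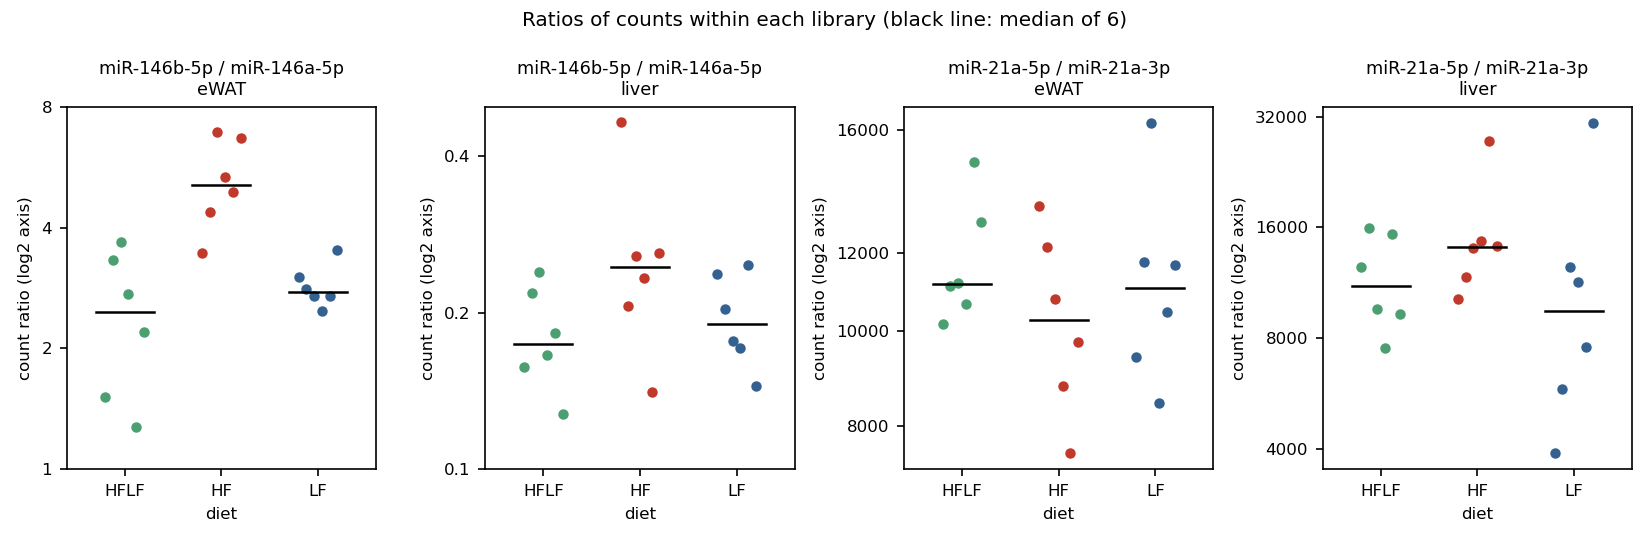
Count ratios within each library (vertical axes, log2 scale) of miR-146b-5p to miR-146a-5p and of miR-21a-5p to miR-21a-3p, by diet and tissue; each point is a library and each black line the median of 6. In eWAT the HF points of miR-146b-5p to miR-146a-5p lie between 3.46 and 6.92, higher than most HFLF and LF points, whereas the ratio of the miR-21a arms overlaps between all diets.

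The other arms of these hairpins and the miR-21 paralogs were too low to test in either tissue. MiR-155-3p was at 0 in all 18 liver libraries, which allows up to 3 counts, or 0.199 to 0.451 CPM depending on the library, and reached at most 0.297 CPM in eWAT. MiR-146a-3p reached at most 0.840 CPM in liver and 0.324 CPM in eWAT. MiR-146b-3p had 0.0988 to 0.754 CPM in HFLF eWAT, 0.114 to 2.07 CPM in HF eWAT and 0 to 1.07 CPM in LF eWAT, with medians of 0.371, 1.12 and 0.583 CPM, and at most 0.636 CPM in liver. MiR-21b reached at most 1.44 CPM in liver and 0.864 CPM in eWAT, and miR-21c at most 0.755 CPM in liver and 0.540 CPM in eWAT.

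Markers of other cells moved with the same diets in eWAT, and their part in the changes of miR-155-5p and miR-146b-5p was not tested. In bulk tissue, more cells of a type and more of its RNA per cell cannot be told apart. Of 7 leukocyte markers, 4 were called higher in HF than in LF and 0 lower, beside 19.6% of all miRNAs higher and 15.2% lower. The median log2 fold change of the 7 was 0.82 beside 0.03 for all miRNAs. The 4 called were miR-342-3p at 3.13 (SE 0.43), miR-223-3p of myeloid cells at 0.82 (SE 0.13), miR-142a-3p at 0.99 (SE 0.22) and miR-511-3p, which lies in the macrophage gene Mrc1, at 0.86 (SE 0.20). MiR-150-5p of mature lymphocytes was at -0.38 (SE 0.26, edgeR adjusted p = 0.268). MiR-142a-5p at 0.43 (SE 0.23, edgeR adjusted p = 0.161) and miR-511-5p at 0.41 (SE 0.19, edgeR adjusted p = 0.106) were not called either. The 7 summed to 1776 to 3093 CPM in HFLF (median 2365), 1820 to 4177 CPM in HF (median 2871) and 1416 to 2211 CPM in LF (median 1973), with none of the 7 at 0. Single markers moved this sum in opposite directions. MiR-342-3p had medians of 152.2 CPM in HFLF, 737.3 CPM in HF and 100.4 CPM in LF. For miR-150-5p they were 1293 CPM, 631.9 CPM and 1115 CPM. In HFLF against HF 0 of the 7 were higher and 3 lower, beside 16.3% of all miRNAs lower. The 3 were miR-342-3p at -2.35, miR-223-3p at -0.53 and miR-511-5p at -0.59. In HFLF against LF 0 of 7 were called either way.

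The 5 miRNAs listed as adipocyte markers ran the other way in eWAT. They are not particular to fat, since in liver they had median sums of 48080 CPM in HFLF, 47720 CPM in HF and 47170 CPM in LF. In HF against LF eWAT 5 of 5 were lower, beside 15.2% of all miRNAs, with a median log2 fold change of -0.92. In HFLF against HF 5 of 5 were higher, beside 55 of all 571 miRNAs, with a median of 0.76. They include miR-143-3p at -1.37 (SE 0.28) and miR-30a-5p at -1.08 (SE 0.20) in HF against LF. Their sum in eWAT was 144700 to 229000 CPM in HFLF, 54990 to 151200 CPM in HF and 178900 to 391700 CPM in LF, so HF libraries lay below all LF libraries. By library totals 3 of 5 were lower in HF against LF and 2 of 5 higher in HFLF against HF. Of 4 fibroblast markers 1 was called higher in HF, miR-214-3p at 0.88 (SE 0.21), and it was also the 1 called lower in HFLF against HF, at -0.72 (SE 0.21). Of 2 endothelial markers 0 were called in HF against LF, at -0.35 for miR-126a-3p and -0.24 for miR-126a-5p, whereas RLE scaling called both lower.

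Of 6 epithelial markers 5 were tested, and these 5 were lower in HF than in LF, by a median of -4.65, and of 3 tested hepatocyte markers 2 were lower, miR-192-5p at -2.47 (SE 0.66) and miR-194-5p at -2.23 (SE 0.52). Without LF replicates 4 and 5 and HFLF replicate 4, miR-155-5p was at 0.87 in HF against LF with an edgeR adjusted p of 0.00184 and miR-146b-5p at 1.07 with 0.00906. MiR-192-5p was then at -0.48 and not called. In HFLF against HF miR-146b-5p was at -1.11 with an edgeR adjusted p of 0.00980 without those libraries. The fit still held LF replicates 3 and 2, at 1337 and 484.1 CPM of epithelial miRNAs.

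In liver the 7 leukocyte markers summed to 287.9 to 427.6 CPM in HFLF, 278.2 to 410.4 CPM in HF and 281.4 to 403.9 CPM in LF, close to each other. In HF against LF liver 0 of the 7 were higher and 1 lower, miR-511-5p at -1.0 (SE 0.21). Of 3 hepatocyte markers 1 was lower, miR-122-5p at -0.37 (SE 0.10), and 1 higher, miR-194-5p at 0.29 (SE 0.08). Of the adipocyte, fibroblast, endothelial and epithelial lists 0 members were called in liver for HF against LF, and of all lists 0 in liver for the other 2 comparisons.

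A further list holds other miRNAs that inflammatory signalling is known to induce or to repress, without splitting them by direction, so its median has no direction to be read against. Of 18 listed, 17 were tested in eWAT. In HF against LF 6 were higher and 4 lower, beside 19.6% of all miRNAs called higher and 15.2% lower, with a median of -0.01 beside 0.03 for all miRNAs. The higher ones were miR-222-3p at 2.42 (SE 0.39) and miR-221-3p at 2.21 (SE 0.35), a pair that promotes cell division; miR-132-3p at 1.15 (SE 0.19) and miR-212-3p at 1.15 (SE 0.25), a pair induced by CREB; the p53 target miR-34a-5p at 0.96 (SE 0.16); and let-7e-5p at 0.28 (SE 0.10). The lower ones were miR-31-5p at -1.39 (SE 0.51), miR-9-5p at -0.85 (SE 0.30), the hypoxia-induced miR-210-3p at -0.82 (SE 0.30) and miR-10a-5p at -0.46 (SE 0.09).

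Those 2 directions were not equally stable. By library totals 0 of the list were lower, and without the 3 libraries high in epithelial miRNAs 2 were, miR-9-5p and miR-10a-5p. In HFLF against HF 6 of the 17 were lower and 1 higher, beside 93 of all 571 miRNAs lower and 55 higher. HF libraries stand in both comparisons, so these values are not a second test. The 6 lower were miR-222-3p at -1.93, miR-221-3p at -1.72, miR-132-3p at -0.996, miR-212-3p at -0.83, miR-34a-5p at -0.49 and let-7e-5p at -0.39. The 1 higher was miR-10a-5p at 0.33. In HFLF against LF 0 of 17 were called, and 0 members of any other list.

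In liver 16 of the 18 were tested and in HF against LF 0 were higher and 3 lower, beside 5.69% of all 422 miRNAs called. The 3 are neighbours in 1 cluster: miR-125a-5p at -0.90 (SE 0.14), let-7e-5p at -0.87 (SE 0.14) and miR-99b-5p at -0.55 (SE 0.11). The list's median was -0.20 beside -0.01 for all miRNAs. Of the 6 called higher in eWAT, let-7e-5p was thus lower in liver and the other 5 were not called there. MiR-34a-5p was at 1.0 in liver (SE 0.32, edgeR adjusted p = 0.0554), close to its 0.96 in eWAT, while miR-222-3p was at 0.22, miR-221-3p at -0.03, miR-132-3p at -0.29 and miR-212-3p at -0.55. In the joint fit the difference between the tissues, eWAT minus liver, passed for 9 of 17, with 7 above 0 and 2 below, beside 26.7% of all 595 miRNAs. The 9 are a share of miRNAs from a list chosen with earlier results known. It was 2.12 for miR-222-3p (SE 0.39), 2.16 for miR-221-3p (SE 0.37), 1.40 for miR-132-3p (SE 0.28), 1.68 for miR-212-3p (SE 0.64) and 1.11 for let-7e-5p (SE 0.17), all 5 called. For miR-34a-5p it was -0.04 (SE 0.34), with an edgeR adjusted p of 0.953.

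To place each member among all miRNAs of a tissue, the 2 miRNAs whose log2 CPM followed it most closely over the 18 libraries were taken by Spearman's rho, without a test. The libraries share their diets and scaling, and the closest of 571 or 422 candidates is high by selection. In eWAT miR-155-5p was closest to miR-15b-5p (0.85) and miR-223-3p (0.84), and miR-146b-5p to miR-139-3p (0.83) and miR-431-5p (0.81). MiR-146a-5p was closest to miR-326-3p (0.71) and miR-223-5p (0.68), miR-21a-5p to miR-24-2-5p (0.83) and miR-7a-5p (0.78), and miR-21a-3p to miR-410-3p (0.88) and miR-18a-5p (0.88). In liver miR-155-5p was closest to miR-669c-5p (0.70) and miR-221-3p (0.64), miR-146a-5p to miR-219a-1-3p (0.72) and miR-592-5p (0.70), and miR-146b-5p to miR-212-3p (0.75) and miR-132-3p (0.66). MiR-21a-5p was closest there to miR-592-5p (0.79) and miR-1948-5p (0.77), and miR-21a-3p to miR-125a-3p (0.83) and miR-99b-3p (0.70). No member had the same closest miRNA in both tissues.

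Among themselves the members followed each other loosely. In eWAT the highest rho over 18 libraries was 0.66, between miR-155-5p and miR-146b-5p, followed by 0.64 between miR-146a-5p and miR-21a-5p. The 2 arms of miR-21a reached 0.52 and the 2 miR-146 sequences 0.32. In liver miR-146a-5p and miR-21a-5p again reached 0.58, the miR-21a arms 0.44, and the 2 miR-146 sequences 0.05, while miR-155-5p and miR-146b-5p were at -0.07.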

How the data were processed

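Libraries were made by the authors from total RNA with a NEXTFLEX small RNA kit. The submitters' processing notes name cutadapt, Bowtie and the build GRCm38.p6. The miRNA reference, the counting program and all versions are not given in the sources used here. Raw counts of each mature miRNA, made by the authors, were deposited for liver and for eWAT. The eWAT table repeats the 18 liver columns, which are identical there and were taken once. For sperm the authors deposited log2 values whose making is not given in the sources used here, and the table lists 0 of the 5 members. A further 18 columns of that table match no sample and were not used. The protocol prints the high-fat diet once as HLD, read here as HF.

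Counts were fitted per tissue with edgeR 4.0.16 in R 4.3.3, with all 3 diets in 1 fit: filterByExpr by diet, TMM scaling, the quasi-likelihood test, 2-sided, and Benjamini-Hochberg adjustment over all miRNAs tested. A call is an adjusted p below 0.05. An SE is the log2 fold change divided by the root of F, and a 95% interval is the estimate with the normal multiple of its SE on either side. Such an interval is approximate and can exclude 0 where the test's unadjusted p is above 0.05. MiR-21a-3p in eWAT HFLF against HF is a case, at -0.92 to -0.0037 with an unadjusted edgeR p of 0.0640. "Libraries in a direction" counts the first group's libraries on that side of the other group's mean. Both tissues entered 1 joint fit of 36 libraries for the interaction and for eWAT against liver. Ratios within a library used counts plus 0.5 and the exact permutation test over 924 splits. Alternatives were RLE and total-count scaling, DESeq2 1.42.0, no filter on low counts, 2 diets alone, a block for the replicate number, each library left out, the 3 eWAT libraries left out, and a pseudocount of 1. The fits were tested on simulated data.

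The text names the 5 members, the other arms and the 2 closest miRNAs per member. It also names every called miRNA of the inflammatory list in HF against LF and the 7 leukocyte markers. Of the other lists it names up to 4 of the smallest p. The members, the lists and the 3 eWAT libraries left out were chosen with earlier results of these data known. At 7017730 counts and above per library, the limit that 0 counts allow (3 counts) was 0.199 to 0.451 CPM in liver and 0.239 to 0.402 CPM in eWAT, for counting error only.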

Additional observations from a re-analysis of the deposited data

Results flagged for a closer look

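Of 42 groups of 6 libraries tested for an outlying library, 3 had one by Dixon's test, and chance alone flags about 1 in 20 groups. In HF liver, replicate 1 held 122.6 CPM of miR-146b-5p, with a gap to the next library of 0.821 of the group's range. In HFLF liver, replicate 4 held 62860 CPM of miR-21a-5p, with a gap of 0.633 of the range. In HF liver, replicate 5 stood apart in the ratio of miR-21a-5p to miR-21a-3p, with a gap of 0.633 of the range. No eWAT group of a member held such a library.

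In HF against LF, 2 members changed differently in eWAT and liver by the interaction test. MiR-146b-5p differed by 1.05 on the log2 scale (edgeR adjusted p = 0.00384), and without HF replicate 1 its liver change was -0.15 with an edgeR adjusted p of 0.541. MiR-21a-3p differed by 1.62 (edgeR adjusted p = 0.0116), a call that was lost with a block for the replicate number (edgeR adjusted p = 0.0802). Of the 17 tested miRNAs of the inflammatory list, 9 also differed between the tissues by edgeR: miR-221-3p by 2.16, miR-222-3p by 2.12, miR-212-3p by 1.68, miR-132-3p by 1.40, let-7e-5p by 1.11, miR-125a-5p by 0.78, miR-99b-5p by 0.49, miR-210-3p by -1.37 and miR-31-5p by -1.45. By library totals miR-210-3p and miR-31-5p were not called.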

How the results depend on the processing

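Of 645 values of members computed under alternatives, 575 kept their direction and their side of the threshold, 26 newly passed, 4 no longer passed and 40 changed sign, 4 of these where the value had been called. The cause of each change was not tested.

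With library totals, members called went to 5 in eWAT HF against LF, 3 in eWAT HFLF against HF, 4 in the difference between tissues for HF against LF, and 3 in eWAT against liver on HFLF and on LF. Of all 571 miRNAs in eWAT HFLF against HF, 25 were then higher and 138 lower. Of all 595 in that difference, 88 were higher and 60 lower. In eWAT against liver 417 were higher and 56 lower on HFLF, and 422 and 52 on LF. Library totals turned the sign in eWAT against liver on HFLF for miR-146a-5p (0.56) and miR-21a-5p (0.0479), and on HF for miR-146a-5p (0.73), miR-21a-5p (0.52) and miR-21a-3p (1.02). They also turned liver HFLF against HF for miR-155-5p (-0.0436), miR-146a-5p (-0.0277) and miR-21a-5p (-0.00257), eWAT HFLF against HF for miR-146a-5p (-0.19), and eWAT HFLF against LF for miR-21a-3p (0.0649), and gave -0.16 for miR-146a-5p in the difference between tissues for HFLF against HF, where RLE and DESeq2 gave -0.0571. All these had missed the threshold by TMM except those in eWAT against liver other than miR-21a-3p on HF. RLE and DESeq2 each called 3 members in the difference between tissues for HF against LF, miR-21a-5p being the one added (edgeR adjusted p of 0.0336 by RLE). Of all 595 miRNAs in that difference, RLE called 77 higher and 92 lower, and DESeq2 called 89 higher and 100 lower. DESeq2 called 1 member in liver HF against LF, beside 24 of all 422 miRNAs higher and 23 lower. In eWAT HFLF against LF it called 1 member, beside 5 of all 571 higher and 4 lower. No filter on low counts called 1 member in liver HF against LF, beside 16 of all 1179 miRNAs higher and 15 lower. Without the 3 eWAT libraries high in epithelial miRNAs 2 members were called in eWAT HFLF against HF, and the share of all miRNAs called is not given here. In HFLF against LF miR-146b-5p was then -0.0467 and miR-21a-3p 0.129. MiR-21a-3p was 0.00636 with the 2 diets alone.

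The labels do not say whether a shared replicate number marks a shared animal or batch, and correlations cannot settle it. Correlations of same-numbered libraries were above 0.1 in at most 2 of 6 pairs within a tissue and 1 of 18 between tissues. Single pairs were far from 0 in eWAT. HFLF against LF had 0.70 for replicate 1 and 0.71 for replicate 4, and HF against LF had -0.78 for replicate 1. With the replicate block, 1 member was called in the difference between tissues for HF against LF, miR-21a-3p giving 1.32 with an edgeR adjusted p of 0.0802, and eWAT HFLF against LF gave -0.00426 for miR-146b-5p. The block moved the count over all miRNAs in that difference to 103, against 159 without it.

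With each library left out, members called ranged from 0 to 1 in liver HF against LF, 2 to 4 in eWAT HF against LF and 1 to 2 in eWAT HFLF against HF. Sign changes occurred for liver HF against LF of miR-146b-5p (-0.151 to 0.0809), liver HFLF against HF of miR-155-5p (-0.0399 to 0.331) and miR-146a-5p (-0.0198 to 0.229), eWAT HFLF against HF of miR-146a-5p (-0.11 to 0.15), eWAT HFLF against LF of miR-146b-5p (-0.17 to 0.19) and miR-21a-3p (-0.123 to 0.0651), and the miR-21a arm ratio in liver HFLF against LF (-0.0160 to 0.578). None of these had passed the test.

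Over all miRNAs, calls higher and lower in eWAT HF against LF were 112 and 87 by TMM, 205 and 53 by library totals, 100 and 111 by RLE and 108 and 120 by DESeq2. Of 1776 counts over lists, 91 moved by more than 1.5 times. The sperm tests were not run, since the table lists no member.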
